A study of Mus musculus with 4 samples.

Results

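The genes described are 34 genes of glycolysis and of the response to low oxygen, found by symbol among the 22620 genes of the deposited tables. They comprise 2 transporters of glucose and lactate, 10 enzymes of the upper and 6 of the lower glycolytic chain (lactate dehydrogenase included), 3 regulators of flux, 3 oxygen-sensing genes, 9 hypoxia targets and Mif, a cytokine gene. All 34 symbols were present. They were followed by counts of unique molecular identifiers (UMIs) in immune cells of MC38 tumours, a mouse colon adenocarcinoma grown in wild-type (WT) mice and in Park2-/- knockout (KO) mice, with 2 libraries per genotype and no treatment named. Tumours were digested with enzymes, CD45-positive cells were enriched on magnetic beads, and 3' droplet libraries were made. The animals' age, the number of mice behind a library, the genotype of the injected cells and the deleted stretch were not named in the labels. The p-values therefore cover only how far the libraries of a genotype lay apart, and part of that may be technical.

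Glycolysis splits glucose into pyruvate in the cytosol, and lactate dehydrogenase turns pyruvate into lactate, which regenerates the cofactor that the pathway consumes. When oxygen is low, prolyl hydroxylases such as those encoded by Egln1 and Egln3 no longer mark the alpha subunit of hypoxia-inducible factor for destruction, and the factor raises transcription of glucose transporters, of most glycolytic enzymes and of genes such as Vegfa, Adm and Hilpda. Inflammatory signals can stabilise the same factor in macrophages with oxygen present, and tumour macrophages are known to differ in these genes with their distance from vessels.

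The 4 libraries totalled 94213071 to 130466357 UMIs over 9239 to 18324 barcodes, KO 1 being the largest. Filtering left 8024, 8154, 14685 and 8712 cells in WT 1, WT 2, KO 1 and KO 2, and their median depth was 9826.5, 11891.5, 5402 and 7723 UMIs. Pairs of libraries shared between 22 and 51 barcodes. Cells were assigned to types by the share of their UMIs in marker panels, and the UMIs of a type were summed per library. Levels are counts-per-million values (CPM), the UMIs of a gene scaled to that sum. Macrophage-gated cells numbered 4646, 5232, 7934 and 4521 in that library order, and monocyte-gated cells 498, 370, 1130 and 710. The macrophage markers C1qa, C1qb and C1qc together stood at 7343 to 10630 CPM in macrophage-gated sums and at 1073 to 1234 CPM in monocyte-gated sums.

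Promoter windows of most members show the letters that hypoxia-inducible factor is known to bind. The sequences below come from the RefSeq table on GRCm38.p6, the build named mm10 by the submitters, as 300-base windows around a gene's start. They are a selection of the members named in the comparisons below, and each printed window holds such letters. Windows of named members without ACGTG, such as Adm and Pdk1, are not printed. Capitals mark ACGTG on the printed strand or CACGT, its form on the other strand, and a CACGTG holds both forms and is counted for each strand.
Slc2a1, chr4:119108495-119108794, plus strand: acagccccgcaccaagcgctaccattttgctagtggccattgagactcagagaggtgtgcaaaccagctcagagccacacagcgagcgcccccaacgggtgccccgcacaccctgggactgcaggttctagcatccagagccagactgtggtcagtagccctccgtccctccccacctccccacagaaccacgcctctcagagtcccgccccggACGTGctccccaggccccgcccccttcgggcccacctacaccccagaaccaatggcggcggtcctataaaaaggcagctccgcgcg
Ankrd37, chr8:45999801-46000100, minus strand: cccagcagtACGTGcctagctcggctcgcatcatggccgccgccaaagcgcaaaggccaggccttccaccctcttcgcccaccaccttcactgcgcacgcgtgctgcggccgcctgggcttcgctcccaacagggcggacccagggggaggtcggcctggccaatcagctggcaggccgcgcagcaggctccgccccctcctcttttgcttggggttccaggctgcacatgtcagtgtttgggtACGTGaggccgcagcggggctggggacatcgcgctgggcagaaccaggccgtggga
Hilpda, chr6:29272376-29272675, plus strand: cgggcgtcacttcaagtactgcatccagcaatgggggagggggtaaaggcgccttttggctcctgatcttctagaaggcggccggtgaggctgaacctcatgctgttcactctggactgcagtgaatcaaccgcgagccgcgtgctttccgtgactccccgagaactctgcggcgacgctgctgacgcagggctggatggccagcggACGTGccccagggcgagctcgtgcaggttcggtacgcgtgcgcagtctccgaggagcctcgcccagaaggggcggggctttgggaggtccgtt
P4ha2, chr11:54100674-54100973, plus strand: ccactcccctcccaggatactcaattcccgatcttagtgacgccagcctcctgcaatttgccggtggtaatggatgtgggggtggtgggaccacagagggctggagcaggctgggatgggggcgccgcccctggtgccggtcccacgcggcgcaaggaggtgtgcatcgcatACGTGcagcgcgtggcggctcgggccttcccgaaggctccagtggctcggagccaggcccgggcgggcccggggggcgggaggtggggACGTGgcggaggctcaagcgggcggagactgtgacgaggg
Ldha, chr7:46845554-46845853, plus strand: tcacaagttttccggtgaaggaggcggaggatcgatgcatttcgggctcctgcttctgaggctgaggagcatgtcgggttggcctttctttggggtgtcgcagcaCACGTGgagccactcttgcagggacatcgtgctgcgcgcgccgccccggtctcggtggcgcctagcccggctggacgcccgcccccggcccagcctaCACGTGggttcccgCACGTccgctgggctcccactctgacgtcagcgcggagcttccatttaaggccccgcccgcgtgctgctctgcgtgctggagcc
Hk3, chr13:55021336-55021635, minus strand: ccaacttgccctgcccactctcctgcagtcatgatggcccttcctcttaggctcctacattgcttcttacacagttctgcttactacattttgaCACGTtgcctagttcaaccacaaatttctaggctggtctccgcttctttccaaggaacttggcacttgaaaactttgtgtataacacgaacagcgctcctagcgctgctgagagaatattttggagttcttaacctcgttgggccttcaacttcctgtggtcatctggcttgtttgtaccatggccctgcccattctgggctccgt
Slc2a1 and Hilpda each held 1 match, Ankrd37 and P4ha2 held 2, Ldha held 5 through a pair of CACGTG and 1 more CACGT, and Hk3 held 1. Hilpda and Ldha each have a further window in the table with 0 matches, which is not printed. RefSeq windows were found for 33 of the 34 members, and ACGTG occurred on either strand in at least 1 window of 24 of them (72.7%), beside 21.8% of all 27025 genes in the table. Of the 50 member windows 54.0% held it, beside 19.6% of all 32851 windows. With GCGTG, the other form of the factor's core letters, counted as well, the shares were 80.0% of member windows and 43.8% of all windows. The windows were not matched for base composition, and ACGTG holds a CG pair that is common in windows rich in CpG. A match is a run of letters and not a measured site.

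Across the immune types the glycolytic enzymes on average took their largest share of UMIs in macrophages and monocytes. The 16 enzymes together made up 12540 and 12230 CPM of macrophage-gated UMIs in the WT libraries and 12500 and 14180 CPM in the KO libraries, which overlap. Monocyte-gated cells held 11270 to 12570 CPM over the 4 libraries, neutrophil-gated cells 7117 to 11410 CPM, CD4 T-gated cells 8887 to 10780 CPM and CD8 T-gated cells 6716 to 10830 CPM. Conventional dendritic cell (cDC)-gated sums, at 5869 to 6564 CPM, and NK-gated sums, at 3745 to 6379 CPM, were the lowest. The 9 hypoxia targets followed another order. Their sum was highest in neutrophil-gated cells, at 2294 and 2579 CPM in WT and 1569 and 1615 CPM in KO. Macrophage-gated cells held 944 to 1374 CPM and CD8 T-gated cells 188.5 to 375.4 CPM. Hilpda alone made up most of the neutrophil sum in each library, so that order rests largely on a single gene and not on the targets as a group. Apart from these sums, levels of different genes are not compared here. CPM is a share of a type's UMIs, so a rise of other genes lowers it.

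**Figure D1:**
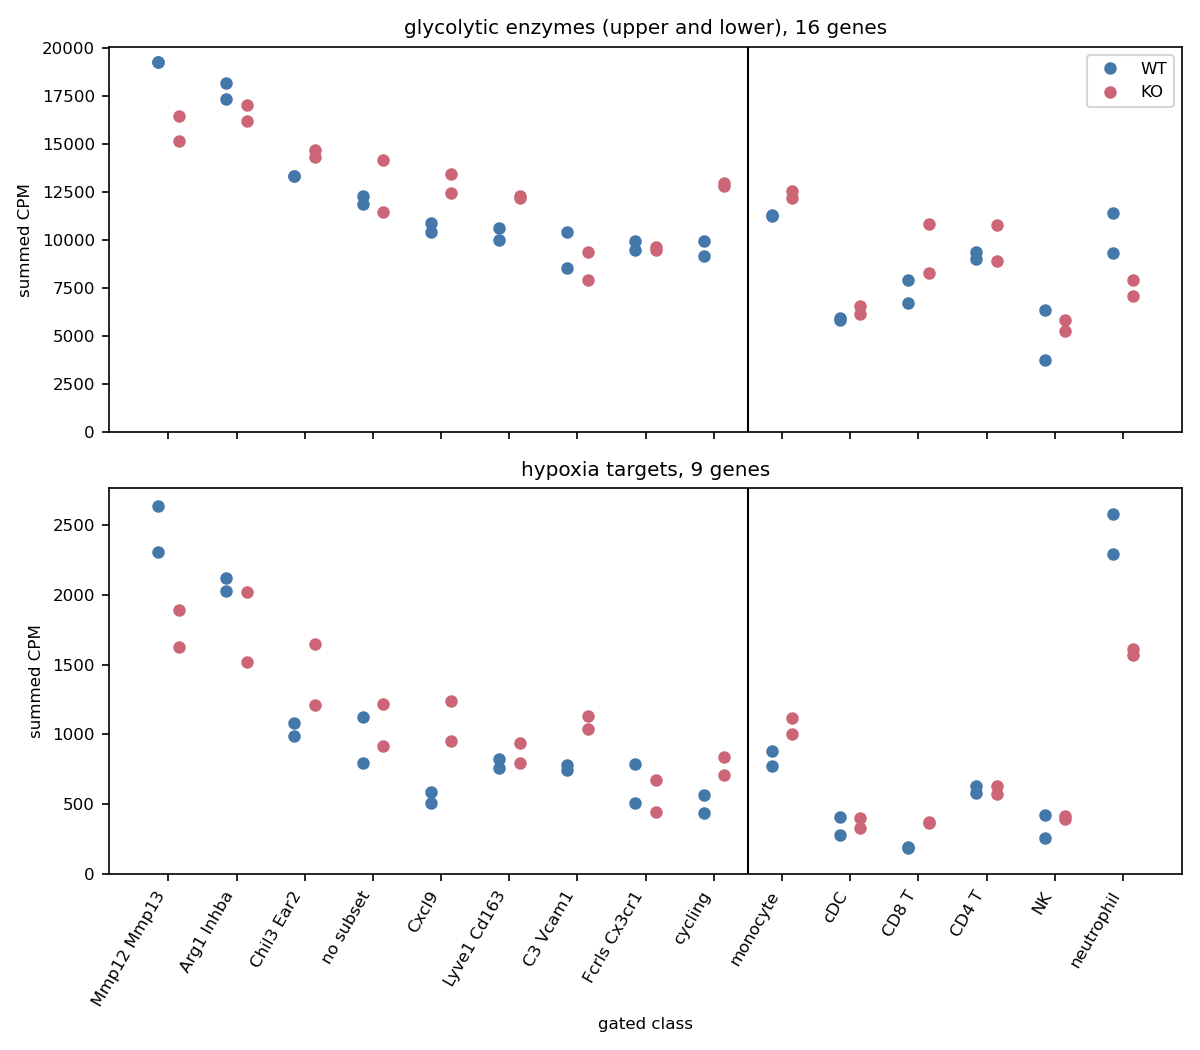
Summed CPM (y axes from 0) of the 16 glycolytic enzymes and of the 9 hypoxia targets in each gated class (x axis), 1 point per library, WT and KO in separate colours, macrophage subsets left of the line. The Mmp12 Mmp13 and Arg1 Inhba subsets hold the highest sums of enzymes, and neutrophil-gated cells and these subsets hold the highest sums of hypoxia targets.

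Within macrophages, 8 subsets were gated on small marker panels and are called by those markers. The Mmp12 Mmp13 subset, named for a pair of metalloproteinases, had the highest mean level of 18 members, and the Arg1 Inhba subset, named for arginase and an activin subunit, of 9. The lowest level fell in the C3 Vcam1 subset for 11 members, in the Fcrls Cx3cr1 subset for 8 and in cycling macrophages for 6. Egln3, an oxygen-sensing hydroxylase that is itself induced by low oxygen, stood at 233, 135, 112 and 104 CPM in the Mmp12 Mmp13 subset of WT 1, WT 2, KO 1 and KO 2. In the C3 Vcam1 subset Egln3 stood at 13.2, 13.2, 22.9 and 20.9 CPM, and the highest subset mean was 8.31 times the lowest. All 4 libraries put Egln3 highest in the Mmp12 Mmp13 subset. The same held for Slc2a1, the glucose importer, with 606, 435, 240 and 258 CPM there and 134, 99.9, 94.5 and 65.3 CPM in the Fcrls Cx3cr1 subset. Adm, which encodes the vasodilator peptide adrenomedullin, was sparse everywhere and stood at 36.3, 22.0, 8.06 and 11.9 CPM in the Mmp12 Mmp13 subset, the highest in each library.

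Not every member followed that order. Hif1a, the alpha subunit gene itself, was highest in the C3 Vcam1 subset in all 4 libraries, with a mean of 363 CPM, and lowest in the Fcrls Cx3cr1 subset at 179 CPM. Hk3, a hexokinase of myeloid cells, was highest in the Lyve1 Cd163 subset at 155 CPM, but in only 2 of the 4 libraries. Pfkfb4, a bifunctional regulator of phosphofructokinase, was lowest in the Mmp12 Mmp13 subset in all 4 libraries, at 14.7 CPM against 28.7 CPM in the Chil3 Ear2 subset. Kdm3a, a histone demethylase, differed by 1.51 times between its highest and lowest subset, and no library shared the order of the means at the top. Between neighbouring subsets the means often lay close. Tpi1 averaged 1040 CPM in Arg1 Inhba and 1037 CPM in Mmp12 Mmp13 cells, Hk1 56.0 and 55.5 CPM, and Gapdh 5432 CPM in Mmp12 Mmp13 and 5322 CPM in Arg1 Inhba cells, differences below the spread of the libraries. These orders are descriptions and were not tested.

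**Figure D2:**
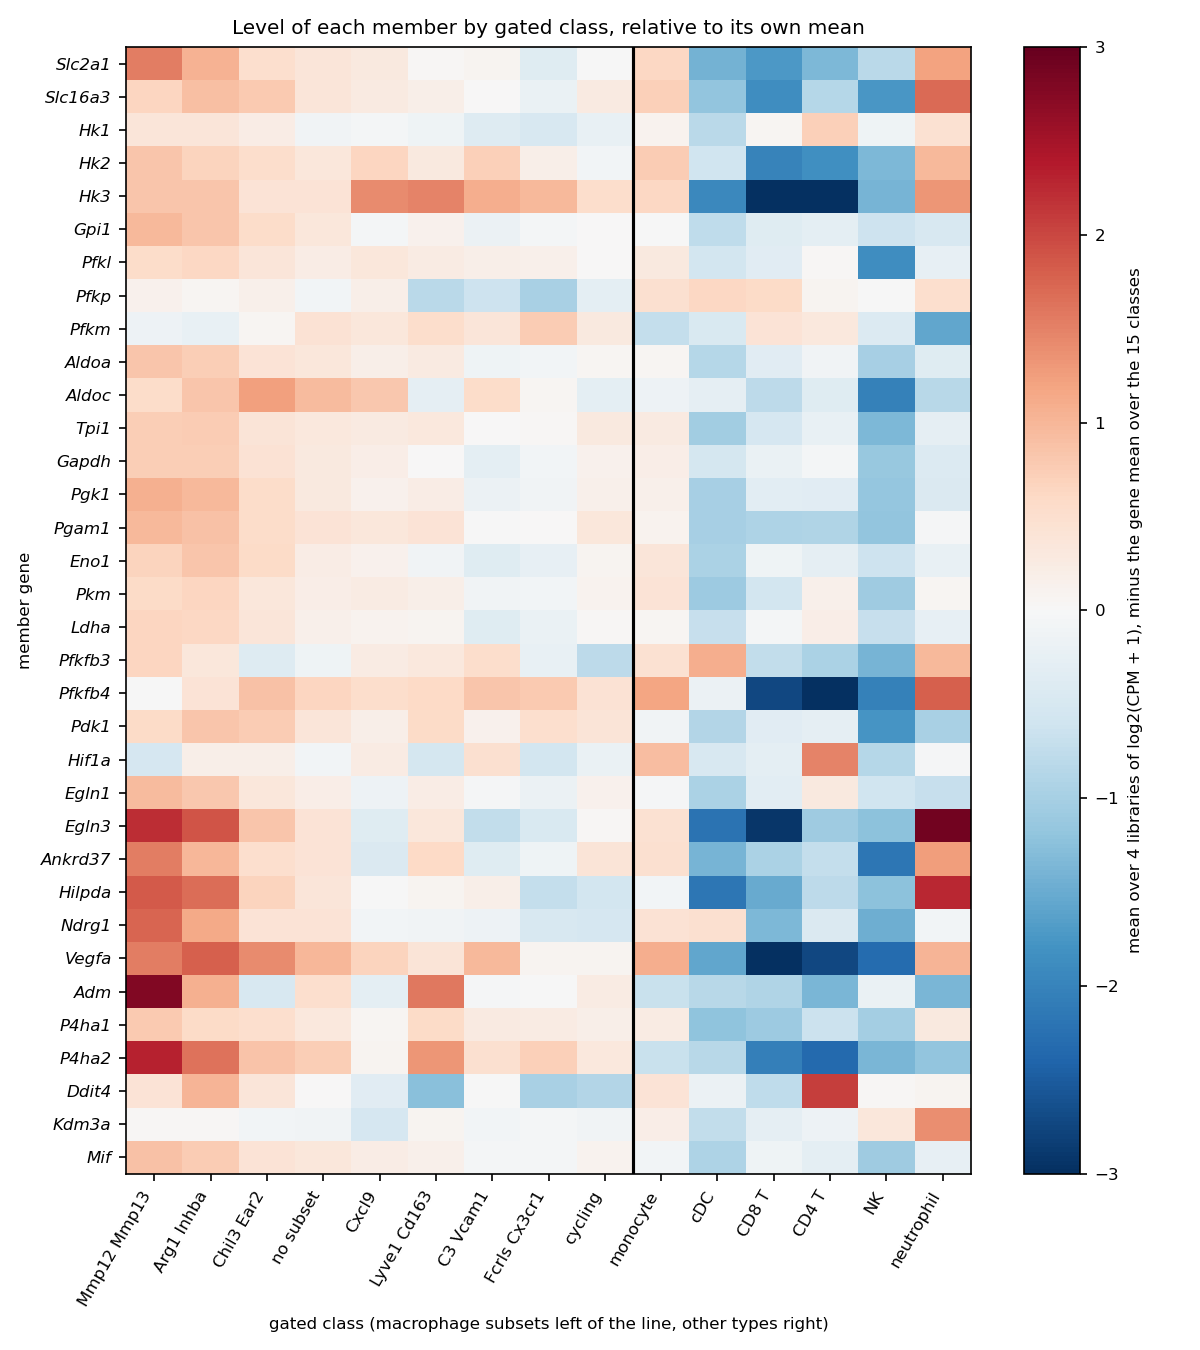
Mean over the 4 libraries of log2(CPM + 1) for each of the 34 members (rows), minus the gene's mean over the 15 classes drawn (columns: 9 macrophage groups left of the line, 6 other types right of it). Red is above and blue below the gene's own mean, and most members are red in the Mmp12 Mmp13 and Arg1 Inhba columns.

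A test within libraries compared the Arg1 Inhba subset with all other macrophage-gated cells. Of the 34 members 31 were higher there and 1 was lower, where 13.3% of the 11877 genes tested were higher and 13.4% lower (edgeR's quasi-likelihood test with the library as a block). The median log2 difference of the members was 0.62, beside -0.02 over all genes. Arg1 is itself known to respond to low oxygen in macrophages, so this gate is not independent of the members' biology. All 6 lower glycolytic enzymes, both transporters and all 3 oxygen-sensing genes were higher, as were 9 of the 10 upper enzymes and 8 of the 9 hypoxia targets.

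Egln3 led the list with 148, 122, 96.8 and 83.4 CPM in Arg1 Inhba cells of WT 1, WT 2, KO 1 and KO 2 against 61.7, 38.5, 46.5 and 51.2 CPM in the other macrophages, a log2 difference of 1.33 ± 0.21 (SE, adjusted p = 0.0186). The groups did not overlap. Ddit4, which encodes an inhibitor of growth signalling, stood at 188, 175, 112 and 60.8 CPM against 92.3, 50.9, 56.5 and 36.9 CPM (1.3 ± 0.24, adjusted p = 0.0323 by edgeR), higher within each library. For Hilpda, a lipid droplet protein that restrains lipolysis, the values were 748, 904, 1011 and 723 CPM against 337, 270, 557 and 448 CPM (1.28 ± 0.25, adjusted p = 0.0395 by edgeR). Vegfa, the vascular growth factor, stood at 494, 535, 519 and 361 CPM against 242, 218, 343 and 244 CPM (1.04 ± 0.18, adjusted p = 0.024 by edgeR). Each of these was higher in the Arg1 Inhba cells of every library. The next 8 by size were Ndrg1 (0.85), Eno1 (0.79), Pgk1 (0.78), Slc2a1 (0.73), Egln1 (0.72), P4ha2 (0.72), Slc16a3 (0.71), the lactate exporter, and Gpi1 (0.7), with adjusted p in edgeR from 1.14e-06 for Eno1 to 0.0423 for Slc2a1. Pfkm, the muscle-type phosphofructokinase with 1.51 to 4.9 CPM in the subset, was the member that was lower (-0.56 ± 0.19, adjusted p = 0.0461 by edgeR). Calls for Egln3, Ddit4, Hilpda, Vegfa and Slc2a1 were lost without WT 1 or without KO 1, and that for Hilpda also without KO 2, at log2 differences of 0.67 to 1.44. All but that of Egln3 were also lost with no filter on low counts. With Leiden clusters in place of the gate 22 members passed, and Eno1 had a log2 difference of 0.07.

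Monocyte-gated cells were next set against macrophage-gated cells of the same libraries. Of 34 members 8 were higher in monocytes and 15 lower, in a comparison in which 47.4% of 12018 genes passed, 23.5% higher and 23.9% lower. Hif1a stood at 538, 427, 523 and 506 CPM in monocytes of WT 1, WT 2, KO 1 and KO 2 and at 254, 229, 277 and 248 CPM in macrophages, a log2 difference of 0.97 ± 0.06 (adjusted p = 2.36e-09 by edgeR). The ranges did not overlap. Pfkp, the platelet-type phosphofructokinase, stood at 194, 178, 236 and 279 CPM against 126, 115, 146 and 171 CPM (0.65 ± 0.06, adjusted p = 2.27e-07 by edgeR), and the difference was in the same direction in each library. Pfkfb4, at 33.1 to 37.9 CPM against 18.6 to 28.6 CPM, was higher too (0.65 ± 0.11, adjusted p = 0.000139 by edgeR). Hif1a and Pfkp kept this direction and passed under all 12 alternatives.

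Of the 9 hypoxia targets 3 were lower in monocytes and 1 was higher, where 23.9% of all genes were lower and 23.5% higher. The median log2 difference of the targets was -0.07, so they did not differ as a group. P4ha2, a collagen prolyl hydroxylase, stood at 5.51, 4.31, 5.2 and 2.58 CPM against 19.4, 12.7, 17.4 and 19.1 CPM in macrophages (-2.0 ± 0.18, adjusted p = 3.81e-07 by edgeR). Adm stood at 1.62, 0, 0.538 and 0.705 CPM against 9.42, 4.61, 2.15 and 4.21 CPM (-2.68 ± 0.36, adjusted p = 1.85e-05 by edgeR), from only 5, 0, 3 and 3 UMIs in monocytes. Hilpda stood at 213, 183, 342 and 281 CPM against 360, 311, 628 and 495 CPM (-0.82 ± 0.06, adjusted p = 1.28e-08 by edgeR), lower within each library although the ranges overlap across genotypes. Pfkm (-1.42), the aldolase Aldoc (-0.8), the pyruvate dehydrogenase kinase Pdk1 (-0.59), Egln3 (-0.46), Mif (-0.44) and the phosphoglycerate mutase Pgam1 (-0.39) were also lower, with adjusted p in edgeR up to 0.00108 for Aldoc. The direction of these results depended on how the cells were classed. Leiden clusters named from the same markers counted 783, 847, 3166 and 1807 monocytes, more than the gate, and changed the macrophage class as well. With them 21 members were higher in monocytes and 2 lower, and the difference turned to 1.15 for Hilpda, 0.45 for Aldoc, 0.15 for Pdk1, 0.95 for Egln3, 0.39 for Mif and 0.33 for Pgam1, and was -0.16 for P4ha2. The share of all genes that passed with those clusters is not given, so these counts have none beside them.

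The contrast changed with the macrophage subset that served as partner. Against Mmp12 Mmp13 cells 24 members were lower in monocytes and 2 higher, where 44.9% of 10427 genes passed, 22.2% lower and 22.7% higher, and against Arg1 Inhba cells 24 were lower and 3 higher, where 43.4% of 10046 genes passed, 21.2% lower and 22.2% higher. Adm (-4.82 ± 0.32), P4ha2 (-3.46 ± 0.17), Hilpda (-2.18 ± 0.22) and Egln3 (-2.03 ± 0.28) had the largest differences from Mmp12 Mmp13 cells, with adjusted p in edgeR up to 0.0024 for Egln3. Chil3 Ear2 cells were likewise above monocytes, for 17 members against 3, where 38.9% of 10032 genes passed, 18.4% lower and 20.5% higher in monocytes. Against Fcrls Cx3cr1 cells the balance turned, with 19 members higher in monocytes and 4 lower where 43.3% of 10156 genes passed, 21.9% higher and 21.4% lower. The largest higher values there were those of Hif1a (1.52 ± 0.09) and Pfkp (1.5 ± 0.1). Cycling macrophages gave 17 higher and 4 lower (55.1% of 10594 genes passed, 27% and 28.1%), C3 Vcam1 cells 15 and 4 (20.3% and 21.4% of 10070), Lyve1 Cd163 cells 12 and 7 (26.3% and 24.7% of 10394), and Cxcl9 cells 9 and 8 (18.7% and 18.3% of 10036). With Leiden clusters 24 members were again lower against Mmp12 Mmp13 cells, but the balance turned to 14 higher and 3 lower against Arg1 Inhba cells, with Hilpda at 0.59 and Egln3 at 0.51, and to 10 higher and 1 lower against Chil3 Ear2 cells, with Hilpda at 1.73 and P4ha2 at 0.8. Shares of all genes are not given for these Leiden counts. The same monocyte sums enter all of these comparisons.

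In macrophage-gated cells KO libraries differed from WT libraries in few members, led by a rise of Hk3. Of 34 members 4 rose and 2 fell, where 10.8% of 12361 genes passed, 6.37% higher and 4.42% lower. Hk3 stood at 55.2 and 51.8 CPM in the WT libraries and at 166 and 141 CPM in the KO libraries, and both KO libraries lay above both WT libraries. The log2 change was 1.64 ± 0.11 (adjusted p = 0.000335 by edgeR). Hilpda rose from 360 and 311 CPM to 628 and 495 CPM (0.87 ± 0.13, adjusted p = 0.00709 by edgeR), again without overlap. Ankrd37, an ankyrin repeat protein gene known as a direct target of hypoxia-inducible factor, fell from 84.9 and 71.0 CPM to 42.9 and 46.2 CPM (-0.68 ± 0.11, adjusted p = 0.00772 by edgeR), so the hypoxia targets did not move as one. Pfkp rose from 126 and 115 CPM to 146 and 171 CPM (0.52 ± 0.11, adjusted p = 0.0216 by edgeR), Pkm, the pyruvate kinase gene, from 1155 and 1227 CPM to 1498 and 1609 CPM (0.51 ± 0.11, adjusted p = 0.0274 by edgeR), and Pfkfb4 fell from 28.6 and 25.3 CPM to 18.6 and 19.4 CPM (-0.38 ± 0.1, adjusted p = 0.0451 by edgeR). None of these overlapped between genotypes. Hk3 and Ankrd37 passed under all 15 alternatives. Hilpda missed the threshold when the subsets were given equal weight (0.49, adjusted p = 0.0604 in limma), and Pfkp, Pkm and Pfkfb4 lost their calls in 6, 3 and 7 of the 15.

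Many members of the pathway, the glucose importer among them, did not pass in macrophages. Slc2a1 stood at 217 and 181 CPM in WT and 158 and 166 CPM in KO (-0.17 ± 0.11, adjusted p = 0.342 by edgeR), below both WT libraries. With the subsets given equal weight Slc2a1 passed as lower (-0.45, adjusted p = 0.0236 in limma). Gapdh stood at 3964, 4095, 3572 and 4201 CPM (0.07 ± 0.13, adjusted p = 0.763) and Ldha, lactate dehydrogenase, at 1115, 1084, 1083 and 1266 CPM (0.22 ± 0.12, adjusted p = 0.269) in WT 1, WT 2, KO 1 and KO 2, and both overlap. Hif1a was measured at 254, 229, 277 and 248 CPM (0.24 ± 0.1, adjusted p = 0.164), and Hk2 at 152, 103, 110 and 99.4 CPM (-0.16 ± 0.17, adjusted p = 0.606). In Hk2 the spread between the WT libraries exceeded the difference between genotypes. Egln3 gave 66.6, 43.9, 54.4 and 56.8 CPM (0.14 ± 0.18, adjusted p = 0.673), and Ndrg1 151, 108, 102 and 114 CPM (-0.14 ± 0.15, adjusted p = 0.619). Vegfa was at 257, 239, 370 and 264 CPM (0.48 ± 0.16, adjusted p = 0.0972), where KO 1 alone stood far above the rest, and it passed without KO 2 (0.7, adjusted p = 0.0021) and in DESeq2 (0.49, adjusted p = 0.0206). Pdk1 had 55.6, 44.0, 37.0 and 38.2 CPM (-0.28 ± 0.11, adjusted p = 0.162) and Mif 1134, 1016, 1124 and 1158 CPM (0.21 ± 0.11, adjusted p = 0.237). These p-values come from edgeR over all genes tested. The 18 other members that did not pass had log2 changes between -1.01 for Adm and 0.39 for Pfkl. Scaling by total counts moved the median of all genes from -0.02 to -0.14 and turned Gapdh to -0.05.

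Composition moved with genotype beside these values. Of macrophage-gated cells the Fcrls Cx3cr1 subset made up 16.7% and 18.0% in WT libraries but 2.16% and 1.86% in KO libraries, and the C3 Vcam1 subset 1.92% and 2.71% against 18.0% and 10.6%. Arg1 Inhba cells held 6.11% and 6.73% against 14.8% and 17.6%, Cxcl9 cells 2.82% and 5.73% against 13.9% and 13.3%, and cycling cells 11.3% and 12.7% against 5.22% and 8.05%. Mmp12 Mmp13 cells held 12.3%, 12.1%, 10.5% and 14.7% in WT 1, WT 2, KO 1 and KO 2. The subset markers themselves differ with genotype, so these shares are not compared by a test. The 6 markers of CD8 T cells summed to 1.90 and 3.85 CPM in WT macrophage sums and 24.8 and 15.9 CPM in KO, and the 6 markers of neutrophils to 64.3, 62.7, 106 and 86.9 CPM. The 6 tumour or epithelial markers summed to 80.2 and 44.9 CPM in WT and 15.25 and 31.0 CPM in KO, with Krt8 at 0. The part of other cell types' RNA in the members' changes was not tested.

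**Figure D3:**
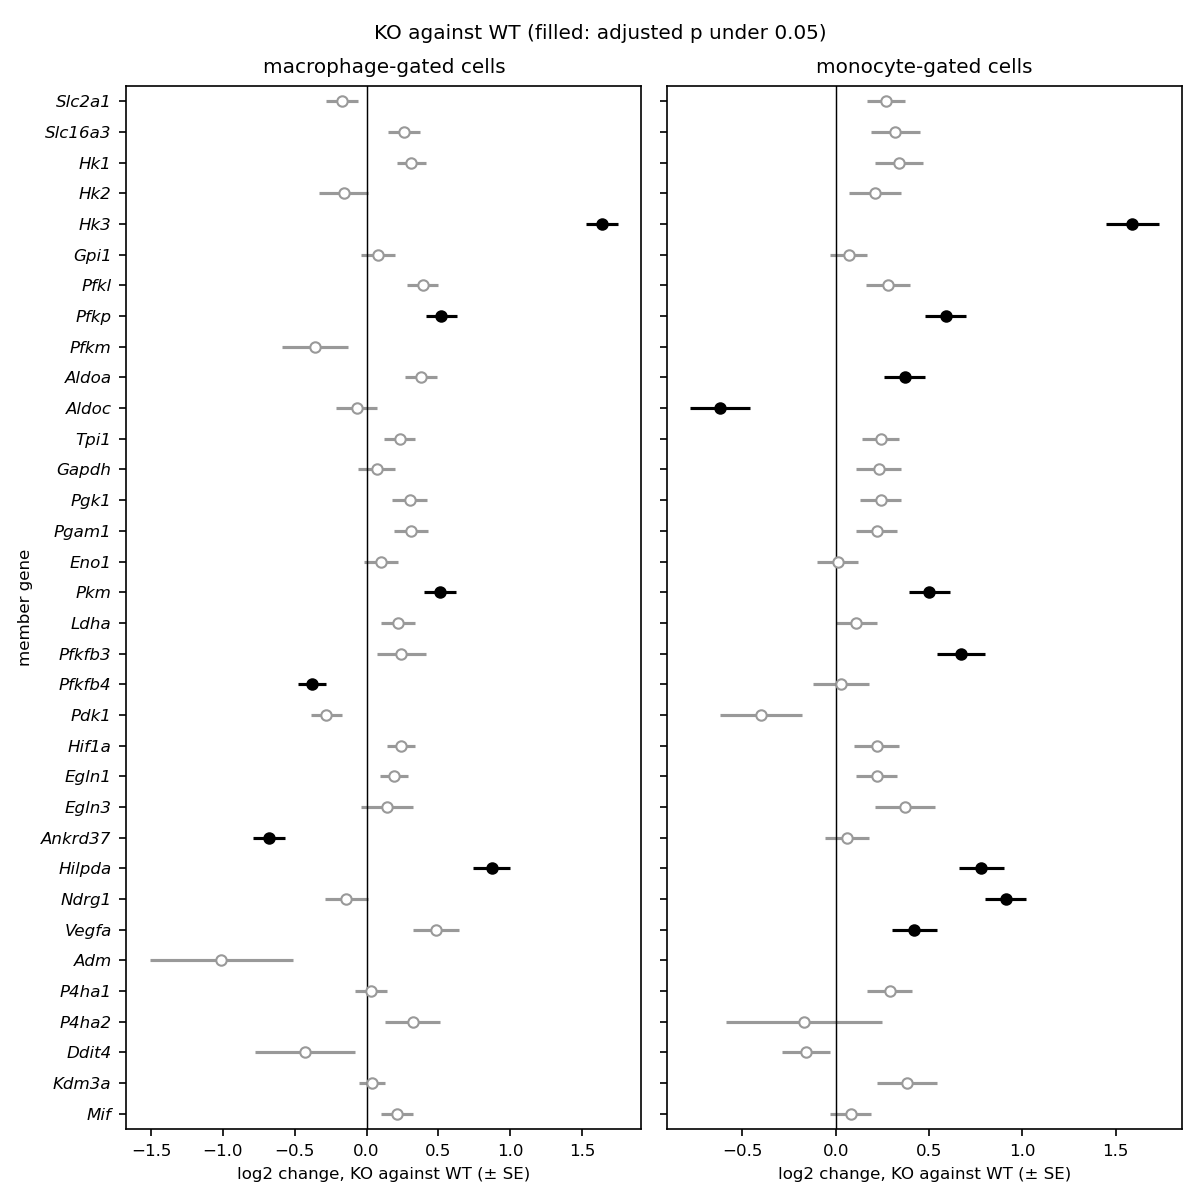
Log2 change of each member in KO against WT (x axis, points with bars of ± 1 SE) in macrophage-gated cells (left) and monocyte-gated cells (right), filled where the adjusted p was under 0.05. Hk3 lies furthest to the right in both panels, and members not tested in monocytes have no point.

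Monocyte-gated cells gave 8 members that rose and 1 that fell in KO, of 32 tested, where 14.5% of 9524 genes passed, 8.83% higher and 5.71% lower. Pfkm and Adm were too low to be tested. Hk3 again led, with 52.2 and 41.0 CPM in WT and 140 and 118 CPM in KO (1.59 ± 0.14, adjusted p = 1.11e-05 by edgeR). Ndrg1, a stress-induced gene of the hypoxia response, stood at 87.2 and 80.2 CPM in WT and 137 and 152 CPM in KO (0.91 ± 0.11, adjusted p = 0.000136 by edgeR), and Hilpda at 213 and 183 CPM against 342 and 281 CPM (0.78 ± 0.12, adjusted p = 0.000834 by edgeR). None of the 3 overlapped between genotypes. Pfkfb3, which makes the activator of phosphofructokinase, stood at 47.6 and 47.9 CPM against 75.0 and 63.2 CPM (0.67 ± 0.13, adjusted p = 0.0045 by edgeR), Pfkp at 194 and 178 against 236 and 279 CPM (0.59 ± 0.11, adjusted p = 0.00298 by edgeR), and Pkm at 1271 and 1372 against 1680 and 1746 CPM (0.5 ± 0.11, adjusted p = 0.0096 by edgeR). All 3 rose without overlap. Vegfa had 286 and 239 against 345 and 298 CPM (0.42 ± 0.12, adjusted p = 0.0293 by edgeR), Aldoa 1213 and 1193 against 1462 and 1373 CPM (0.37 ± 0.11, adjusted p = 0.0406 by edgeR), and Aldoc fell from 41.5 and 35.4 to 24.6 and 21.2 CPM (-0.62 ± 0.16, adjusted p = 0.0215 by edgeR). Hk3 passed under all 14 alternatives, and 5 members passed without KO 1 and 4 with cells near the gate left out. With the broader Leiden monocytes 1 member rose and 11 fell, so the direction reported here holds for the gated cells and not for that class. Ndrg1, Hilpda, Vegfa and Aldoa there had log2 changes of -0.37, -0.44, -0.39 and -0.16, and Hilpda passed in that direction (adjusted p = 0.0303 by edgeR). For the counts with Leiden monocytes no share of all genes is given. In the gated monocyte sums tumour or epithelial markers stood at 143.3 and 74.6 CPM in WT and 28.7 and 47.9 CPM in KO, with Krt8, Krt18, Krt19 and Cldn7 at 0, and CD8 T markers at 1.30 and 13.8 against 45.2 and 29.6 CPM. Their part in the changes was not tested.

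Whether the KO effect differed between monocytes and macrophages was tested as an interaction. It passed for 5 of 34 members, all with a higher value in monocytes, where 5.09% of 12018 genes passed and 2.51% were higher. The difference in log2 change was 1.07 ± 0.11 for Ndrg1 (adjusted p = 2.42e-11 by edgeR), 0.76 ± 0.13 for Ankrd37 (2.99e-05) and 0.46 ± 0.1 for Slc2a1 (0.00092). It was 0.45 ± 0.14 for Pfkfb3 (0.0397) and 0.39 ± 0.11 for Hk2 (0.0147). Ankrd37, which fell in macrophages, stood at 58.3, 55.6, 51.1 and 57.8 CPM in monocytes, where the genotypes overlapped. Slc2a1 stood at 186 and 176 CPM in WT monocytes and at 202 and 198 CPM in KO monocytes, the opposite order to that in macrophages. Without WT 1 the interaction passed for 2 members and without KO 2 for 3. With Leiden clusters it passed for 26 members, 1 higher and 25 lower, with the sign turned for all 5 of these genes (Ankrd37 -0.61, Slc2a1 -0.46, Hk2 -0.24, Ndrg1 -0.12 and Pfkfb3 -0.12). The 5.09% belongs to the gated cells, and no share of all genes is given for the clusters, so whether the turn is particular to the members is not shown.

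Within the macrophage subsets the KO changes of the same genes went in opposite directions. These fits, 1 per subset, were added after the data had been seen. In cycling macrophages 21 of 34 members rose and 1 fell, where 11% of 10672 genes passed, 6.88% higher and 4.16% lower, and the members' median log2 change was 0.56 beside -0.02 for all genes. In Mmp12 Mmp13 cells 1 rose and 5 fell, where 3.85% of 10310 genes passed, 2.15% higher and 1.7% lower, with a median of -0.33 beside 0. In Arg1 Inhba cells 1 rose and 7 fell, where 3.09% of 10133 genes passed, 1.83% higher and 1.26% lower, with a median of -0.21 beside 0. A single F test over the subset by genotype terms, with the library as a block, passed for 29 of the 34 members, where 19.3% of 11234 genes passed. Pfkl, Pfkm, Pfkfb4, Hif1a and Adm did not pass it. The count was 17 without KO 1 and 19 without KO 2.

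In cycling macrophages 12 of the 16 enzymes of the chain rose. These were 7 of the 10 upper and 5 of the 6 lower enzymes, and both transporters rose too. The cycling label replaced any other subset label, so this class can hold cells of every subset, in shares that may differ with genotype. The part of that mixture in the changes was not tested. Hk2 (-0.07), Pfkm (-0.14), Aldoc (-0.16) and Eno1 (0.37) did not pass. Pgk1, phosphoglycerate kinase, stood at 697 and 575 CPM in WT and at 1023 and 1001 CPM in KO (0.81 ± 0.11, adjusted p = 0.00112 by edgeR). Aldoa stood at 1086 and 1001 CPM against 1696 and 1603 CPM (0.8 ± 0.1, adjusted p = 0.000767 by edgeR), and Pkm at 968 and 984 CPM against 1497 and 1484 CPM (0.75 ± 0.1, adjusted p = 0.000978 by edgeR). In all 3 both KO libraries lay above both WT libraries. Hk3 rose from 37.6 and 37.8 CPM to 163 and 116 CPM (2.03 ± 0.15, adjusted p = 0.000109 by edgeR), Hilpda from 130 and 83.0 CPM to 328 and 270 CPM (1.64 ± 0.23, adjusted p = 0.0147 by edgeR), and P4ha2 from 7.07 and 5.37 CPM to 14.3 and 13.5 CPM (1.32 ± 0.19, adjusted p = 0.00177 by edgeR). Egln3 rose from 22.9 and 18.4 CPM to 41.8 and 42.8 CPM (1.19 ± 0.13, adjusted p = 0.000423 by edgeR), while Hif1a, at 258, 218, 216 and 217 CPM, had a log2 change of 0.01. Pgam1 (0.74), Pfkp (0.73), Vegfa (0.69), Slc16a3 (0.63) and Ndrg1 (0.62) completed the 12 largest, with adjusted p in edgeR up to 0.0289 for Slc16a3. Pfkfb4 was the one that fell (-0.54 ± 0.14, adjusted p = 0.0326 by edgeR). Without KO 1 the count was 11 and without KO 2 it was 12, and with Leiden clusters it was 15, with Hilpda no longer called (1.29, adjusted p = 0.107 by edgeR). Total counts moved the median of all genes here to -0.16 and left 17 members called. In cycling sums C1q genes stood at 7872 and 9123 CPM in WT and 12320 and 11640 CPM in KO. Tumour or epithelial markers stood at 99.4 and 55.9 against 19.8 and 30.5 CPM, with no UMIs of Krt8 or Krt19, and CD8 T markers at 1.04 and 3.69 against 24.6 and 13.3 CPM. Their part in the members' changes was not tested.

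In the Mmp12 Mmp13 subset 2 of the 9 hypoxia targets, 2 of the 3 flux regulators and the glucose importer fell in KO. The other 7 targets did not pass, but all had negative log2 changes. These ran from -1.55 for Adm and -0.86 for Ddit4 to -0.19 for Hilpda, with P4ha2 at -0.47 and Vegfa at -0.32. Ankrd37 fell from 258 and 169 CPM to 64.2 and 64.8 CPM (-1.75 ± 0.2, adjusted p = 0.00788 by edgeR), Ndrg1 from 495 and 350 CPM to 176 and 189 CPM (-1.23 ± 0.17, adjusted p = 0.00946 by edgeR), and Slc2a1 from 606 and 435 CPM to 240 and 258 CPM (-1.09 ± 0.16, adjusted p = 0.0119 by edgeR). WT 1 was the highest library for all 3, and both KO libraries lay below both WT libraries. Pfkfb3 fell from 90.7 and 77.1 CPM to 49.5 and 51.8 CPM (-0.75 ± 0.12, adjusted p = 0.0135 by edgeR) and Pdk1 from 59.9 and 52.3 CPM to 41.2 and 34.8 CPM (-0.59 ± 0.13, adjusted p = 0.0444 by edgeR). Hk3 went the other way, from 65.0 and 60.2 CPM to 128 and 127 CPM (1.01 ± 0.11, adjusted p = 0.00242 by edgeR). No other enzyme of the chain passed here. Gapdh stood at 6024, 6376, 4401 and 4925 CPM with a log2 change of -0.43, and Pgk1 at 1751, 1634, 1285 and 1349 CPM with one of -0.39. The count of 6 was 2 without KO 1, 2 without KO 2, 16 without WT 2 and 17 with no filter on low counts. With Leiden clusters 6 members passed, and Slc2a1 was no longer among them (-0.75, adjusted p = 0.0637 by edgeR). C1q genes summed to 3169 and 3741 CPM in WT and 7093 and 7006 CPM in KO cells of this subset, and the part of that difference in the members' values was not tested.

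Ankrd37, Slc2a1, Pdk1 and Ndrg1 fell in the Arg1 Inhba subset as well. Ankrd37 fell from 111 and 122 CPM to 53.8 and 54.2 CPM (-1.1 ± 0.12, adjusted p = 0.000805 by edgeR), and Slc2a1 from 343 and 326 CPM to 202 and 184 CPM (-0.78 ± 0.11, adjusted p = 0.00366 by edgeR). Adm fell from 10.8 and 5.43 CPM to 2.04 and 2.64 CPM (-1.72 ± 0.35, adjusted p = 0.027 by edgeR). In each of the 3 both KO libraries lay below both WT libraries. Pdk1 fell from 79.1 and 62.0 to 46.4 and 41.4 CPM (-0.66 ± 0.13, adjusted p = 0.0228 by edgeR), Hk2 from 184 and 141 to 113 and 98.9 CPM (-0.6 ± 0.13, adjusted p = 0.0351 by edgeR), Ndrg1 from 248 and 191 to 138 and 152 CPM (-0.58 ± 0.13, adjusted p = 0.0351 by edgeR) and Egln3 from 148 and 122 to 96.8 and 83.4 CPM (-0.56 ± 0.13, adjusted p = 0.0391 by edgeR). Hk3 rose from 48.4 and 48.2 to 185 and 146 CPM (1.79 ± 0.14, adjusted p = 0.000127 by edgeR). Hk3 and Ankrd37 passed under all 13 alternatives, while the count of 8 was 3 without WT 1, 4 without KO 1, 3 without KO 2, 5 with cells near the gate left out and 2 with Leiden clusters. In this subset C1q genes stood at 4892 and 5819 CPM in WT and 8259 and 8448 CPM in KO. Tumour or epithelial markers stood at 108.8 and 40.5 against 17.9 and 35.0 CPM, with no UMIs of Krt8, Krt18 or Cldn7. CD8 T markers stood at 0.98 and 1.81 against 18.4 and 12.6 CPM, and the part of all these in the changes was not tested.

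Hk3 was the one member that passed in each of the 9 macrophage groups, always higher in KO, with log2 changes from 1.01 in Mmp12 Mmp13 to 2.03 in cycling cells. With Leiden clusters it did not pass in Lyve1 Cd163 cells (0.3, adjusted p = 0.758 by edgeR). Hilpda passed in cycling, Cxcl9, C3 Vcam1, Chil3 Ear2 and Lyve1 Cd163 cells. In Cxcl9 cells Hilpda rose from 157 and 126 CPM to 550 and 401 CPM (1.87 ± 0.16, adjusted p = 6.01e-05 by edgeR), and in C3 Vcam1 cells from 168 and 187 CPM to 523 and 454 CPM (1.54 ± 0.15, adjusted p = 5.09e-05 by edgeR). In Mmp12 Mmp13 and Arg1 Inhba cells, where Hilpda was highest, its log2 change was -0.19 and 0.08. Cxcl9 cells had 12 members higher and 1 lower of 33 tested (7.1% of 10142 genes passed, 4.45% higher), among them P4ha2 (1.24), Egln3 (1.19) and Vegfa (1.07). Between 5 and 7 members passed there when any 1 library was left out, and with Leiden clusters Hilpda, P4ha2 and Egln3 had log2 changes of -0.33, -1.82 and -1.15. Chil3 Ear2 cells had 8 higher and 1 lower of 33 (9.42% of 10034 genes passed, 5.8% higher), with 3 without KO 1 and 4 without WT 2. Lyve1 Cd163 cells had 7 higher of 34 (4.88% of 10131 genes passed, 2.93% higher), with 15 without WT 2, and with Leiden clusters Pgk1, Pkm and Aldoa turned to -0.89, -0.59 and -0.24. C3 Vcam1 cells had 3 higher of 33 (5.53% of 9688 genes passed, 3.49% higher), Fcrls Cx3cr1 cells had Hk3 alone of 33 (2.67% of 10142 genes passed, 1.98% higher) with 4 without WT 2 and 3 without KO 1, and macrophages in no subset had Hk3 (1.76) higher and Ankrd37 (-0.79) lower of 34 (6.44% of 10844 genes passed), with 3 to 6 when 1 library was left out. Fewest cells stood behind the C3 Vcam1 subset of WT 1, with 89, and the Fcrls Cx3cr1 subset of KO 2, with 84.

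**Figure D4:**
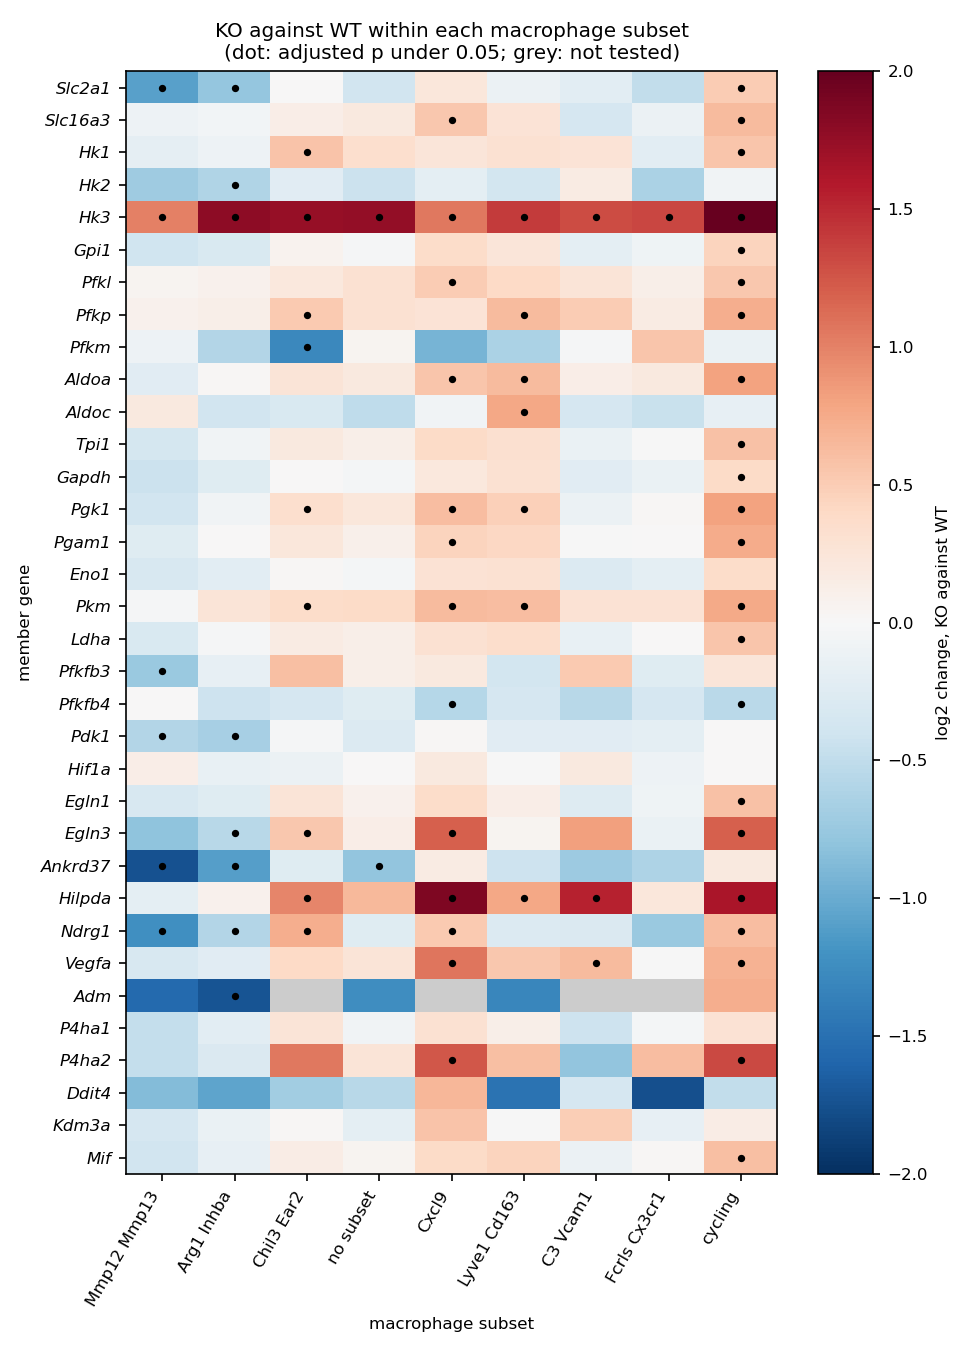
Log2 change in KO against WT (colour) of each member (rows) within each macrophage group (columns), with a dot where the adjusted p was under 0.05 and grey where a member was not tested. The Hk3 row has a dot in every column, and Slc2a1, Ankrd37 and Ndrg1 are blue in Mmp12 Mmp13 and Arg1 Inhba cells.

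Outside the macrophage lineage few members passed. In cDC-gated cells 2 of 31 members rose, where 3.19% of 8464 genes passed, 2% higher. Pfkp rose from 208 and 160 CPM to 305 and 323 CPM (0.8 ± 0.14, adjusted p = 0.000823 by edgeR) and passed under all 13 alternatives. Vegfa rose from 36.1 and 34.2 CPM to 70.1 and 48.4 CPM (0.81 ± 0.22, adjusted p = 0.0382 by edgeR), a call that ended without KO 1 (0.48, adjusted p = 0.614) and without WT 1 (adjusted p = 0.0619). In CD8 T-gated cells 3 of 29 members rose, where 1.07% of 8202 genes passed, 0.914% higher. Hilpda stood at 69.1 and 42.8 CPM in WT and 166 and 136 CPM in KO (1.7 ± 0.26, adjusted p = 0.00548 by edgeR), Hif1a at 100 and 179 CPM against 325 and 357 CPM (1.22 ± 0.21, adjusted p = 0.0109 by edgeR), and Aldoa at 741 and 810 CPM against 1090 and 1459 CPM (0.79 ± 0.16, adjusted p = 0.034 by edgeR). The genotypes did not overlap. WT 1 and WT 2 held 29 and 93 of these cells, no member passed without either one, and none passed with high doublet scores kept. Macrophage C1q RNA stood in CD8 T-gated sums at 2.74% to 6.95% of its macrophage level, and that share of the macrophage level of Hilpda would come to 9.85, 18.4, 43.7 and 22.6 CPM in WT 1, WT 2, KO 1 and KO 2.

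CD4 T-gated cells had 1 of 27 members higher, where 1.08% of 6121 genes passed, 0.899% higher: Slc16a3 rose from 56.5 and 71.1 CPM to 116 and 128 CPM (0.95 ± 0.25, adjusted p = 0.0467 by edgeR), and the call held in 2 of 13 alternatives. NK-gated cells had none of 28 members past the threshold in edgeR, where 0.0155% of 6463 genes passed, with 1 member at an unadjusted p under 0.05 and none in DESeq2. Without WT 2, which held 42 NK-gated cells, 7 members passed. In neutrophil-gated cells 3 of 29 members fell, and none rose, where 3.08% of 3280 genes passed, 2.32% higher and 0.762% lower. Ddit4 fell from 146 and 120 CPM to 42.1 and 20.8 CPM (-1.8 ± 0.39, adjusted p = 0.015 by edgeR), Pfkl, the liver-type phosphofructokinase, from 105 and 120 CPM to 42.1 and 13.9 CPM (-1.61 ± 0.41, adjusted p = 0.0348 by edgeR), and Ldha from 988 and 1283 CPM to 592 and 617 CPM (-0.84 ± 0.22, adjusted p = 0.0451 by edgeR). Both KO libraries lay below both WT libraries, but the KO 2 values of Ddit4 and Pfkl rest on only a few UMIs. Neutrophils numbered 160, 87, 334 and 73, no member passed with high doublet scores kept or in DESeq2, and 1 passed without KO 2 or without WT 1. The share of macrophage RNA judged by C1q was 18.4% to 31.0% there, and for Pfkl that share of the macrophage level comes to 14.5 to 21.6 CPM. In KO 2 it comes to 21.6 CPM, above the whole 13.9 CPM measured, so the share is a rough guide.

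Other genes of the pathway were followed from lists chosen with earlier results of these data known. Of 29 other hypoxia targets 27 were tested in macrophages, of which 2 rose in KO, Nampt (0.72, adjusted p = 0.00433 by edgeR) and Rora (0.45), and none fell, where 10.8% of all genes passed. In Mmp12 Mmp13 cells 8 of 23 tested fell and none rose, led by Selenbp1 (-1.21), Pgf (-1.17), a placental growth factor gene, and Gbe1 (-1.15), the glycogen branching enzyme, where 1.7% of all genes fell. In Arg1 Inhba cells 9 of 22 fell and none rose, among them Selenbp1 (-1.29) and Pgf (-1.09), where 1.26% of all genes fell. Cycling cells had 6 of 23 that rose and none that fell, led by Ak4 (1.45), Nampt (0.85) and Ero1a (0.74), where 6.88% of all genes rose. Their median log2 change was -0.45, -0.44 and 0.27 in the 3 subsets, beside 0, 0 and -0.02 for all genes. Against the rest of the macrophages, the Arg1 Inhba subset had 15 of 25 other hypoxia targets higher and 1 lower, and 6 of 11 genes known to respond to tissue digestion higher, where 13.3% of all genes were higher. In monocytes 4 of 21 other hypoxia targets rose in KO and 2 fell, led by Nampt (1.07), Pgf (1.05) and Selenbp1 (-0.94), where 8.83% of all genes rose and 5.71% fell. Among regulators of the factor, Cited2, a transcriptional modulator induced by it, rose in macrophages (0.87, adjusted p = 0.00222 by edgeR), monocytes (0.8) and cycling cells (0.71), and was the one of 13, 12 and 13 regulators that passed. In these fits 10.8% of all genes passed in macrophages, 14.5% in monocytes and 11% in cycling cells. A single call in so short a list therefore says nothing of the list, and the same shares apply to the lists that follow. Of the other glycolysis genes 1 of 13 passed in macrophages, Slc2a6, which was lower (-0.5, adjusted p = 0.0499 by edgeR), 1 of 9 in monocytes, Tigar (-0.94), and 1 of 11 in cycling cells, Ldhb (-1.04), all lower. None of 8 pentose phosphate genes passed in macrophages or in monocytes, with 0 passing also in cycling, Mmp12 Mmp13 and Arg1 Inhba cells in the same edgeR fits. Of 11 genes of pyruvate entry into mitochondria, Pdp2 (-0.75) and Mpc1 (-0.59) fell in macrophages. Of 11 genes known to respond to tissue digestion, Fosb (0.63) and Atf3 (0.47) rose in macrophages, Atf3 (0.97), Ier3 (0.46) and Fos (0.45) in monocytes, and none passed in Arg1 Inhba cells.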

How the data were processed

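Droplet 3' libraries of CD45-enriched cells from MC38 tumours were analysed, 2 from WT and 2 from Park2-/- mice. The deposited matrices hold raw UMI counts per gene and barcode on mm10. The file headers give Cell Ranger 5.0.0, whereas 5.0.1 stands in the submitters' processing notes, which also list Seurat 3.15 with no role. Genomic DNA is the molecule per the labels, but the deposited values are UMI counts of genes.

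Cells needed 200 genes or more and a mitochondrial share of UMIs no higher than 20%. Scrublet in scanpy 1.11.5 marked at most 1 barcode per library, too few for a working caller, so the highest doublet scores were removed, 0.8% per 1000 barcodes (640, 661, 2522 and 786). Barcodes under 1000 UMIs were set aside except for neutrophils (513, 318, 1936 and 1073), and 1533, 1418, 1175 and 1156 cells matched no gate. Gates were shares of panel UMIs per 10000: monocytes needed 20 with macrophage markers under 100, and macrophages 25 with monocyte markers under 20. A subset needed 1.5 times its macrophage mean with 3 UMIs. Cycling macrophages instead needed 10 per 10000 with 3 UMIs, and that label replaced any other subset label. An earlier gating by highest standardised score was dropped after its classes were compared with their markers. The thresholds were set with marker distributions, and some member levels, in view. Within 20% of a threshold lay 11.6%, 8.07%, 7.07% and 8.14% of macrophage and monocyte cells. No member is a marker. Free RNA was not removed.

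Counts were summed per type and library with at least 20 cells and passed to edgeR 4.0.16 under R 4.3.3 (filterByExpr, TMM, robust quasi-likelihood, Benjamini-Hochberg over all genes tested, threshold 0.05, two-sided). SE is the log2 change over the root of F. Comparisons of types in the same libraries had the library as a block and left out gate genes. Each KO against WT fit used the 4 libraries of its type. A 2 against 2 exact permutation could not pass 0.05, and calls rest on the spread shared across genes. The fit was tested on simulated counts with large known changes in well-detected genes and a fixed spread, nearly all of which it recovered. Smaller changes and sparse genes were not simulated, so the simulation says nothing of the calls made on them. DESeq2 1.42.0, limma 3.58.1, other scalings, filters, Leiden clusters (igraph 0.11.9) and libraries left out were alternatives. Cluster names needed 3 markers in at least 10% of cells, a rule added after the clusters were seen.

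The members and lists were chosen with earlier results of these data known. The within-subset fits and the F test over subsets were added after the data were seen. A pair of further fits, of Mmp12 Mmp13 against Fcrls Cx3cr1 cells and of the KO effect between Mmp12 Mmp13 and C3 Vcam1 cells, were run once, had been picked from levels seen, and were dropped. Members that passed a comparison are named, the 12 largest where more did, along with 11 members always given in macrophages. Values in every library are written for the leading ones, and for the monocyte fits against each subset only the largest are written. Of the lists the 3 largest changes are named for the main comparisons, and 1 of these and the counts of the targeted gene are not reported here. Aldoa has a further identifier with 4 to 11 UMIs per library that was left out. Eno1 has a near-copy, Eno1b, at 14.8 to 23.0 CPM over whole libraries, so reads could be split between them.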

Additional observations from a re-analysis of the deposited data

Results flagged for a closer look

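The KO effect differed between monocyte-gated and macrophage-gated cells by the test of that difference for 5 members, each higher in monocytes, where 5.09% of 12018 genes passed. The difference in log2 change was 1.07 for Ndrg1, 0.76 for Ankrd37, 0.46 for Slc2a1, 0.45 for Pfkfb3 and 0.39 for Hk2. With Leiden clusters, whose monocyte class is broader, the sign turned for all 5 of these members.

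Among the macrophage subsets the KO effect differed for 29 of 34 members in a single F test, where 19.3% of 11234 genes passed. The 12 largest F values were 20.1 for Mif, 17.6 for Pgk1, 15.6 for Egln3, 14.0 for Hilpda, 13.97 for P4ha2, 12.5 for Pkm, 11.34 for P4ha1, 11.32 for Gapdh, 11.04 for Ndrg1, 10.6 for Ldha, 10.32 for Tpi1 and 10.27 for Slc2a1. For Mif the log2 change ran from -0.39 in Mmp12 Mmp13 to 0.6 in cycling cells, and for Egln3 from -0.8 in Mmp12 Mmp13 to 1.19 in Cxcl9 and in cycling cells. Ndrg1 ran from -1.23 in Mmp12 Mmp13 to 0.72 in Chil3 Ear2 cells. The subset gates use markers that differ with genotype, and the part of that in these differences was not tested. Groups held 2 libraries each, too few to look for a library that stands apart from its group.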

How the results depend on the processing

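Numbers of called members are given with the reported number second. With cells near the gate left out they were 4 against 9 for monocyte, 1 against 2 for cDC, 1 against 3 for neutrophil, 3 against 5 for the monocyte to macrophage interaction, 5 against 8 for Arg1 Inhba, 4 against 9 for Chil3 Ear2 and 4 against 7 for Lyve1 Cd163. With no filter on low counts they were 4 against 2 for cDC, 6 against 3 for CD8 T, 7 against 3 for C3 Vcam1, 3 against 1 for Fcrls Cx3cr1, 14 against 7 for Lyve1 Cd163, 17 against 6 for Mmp12 Mmp13 and 7 against 2 for no subset. In DESeq2 they were 1 against 2 for cDC, 0 against 1 for CD4 T, 0 against 3 for neutrophil, 3 against 5 for the monocyte to macrophage interaction and 2 against 1 for Fcrls Cx3cr1. With high doublet scores kept they were 4 against 2 for cDC, 0 against 3 for CD8 T, 0 against 1 for CD4 T and 0 against 3 for neutrophil. With the replicate number as a block they were 4 against 2 for cDC, 0 against 1 for CD4 T, 14 against 9 for Chil3 Ear2, 6 against 1 for Fcrls Cx3cr1, 12 against 6 for Mmp12 Mmp13 and 7 against 2 for no subset. With RLE size factors the number was 0 against 1 for CD4 T. With total counts the number was 0 against 1 for CD4 T. With a mitochondrial maximum of 10% the number was 0 against 1 for CD4 T. With Leiden clusters they were 0 against 1 for CD4 T, 17 against 27 for monocytes against Arg1 Inhba, 11 against 20 for monocytes against Chil3 Ear2, 30 against 19 for monocytes against Lyve1 Cd163, 26 against 5 for the monocyte to macrophage interaction, 2 against 8 for Arg1 Inhba, 14 against 9 for Chil3 Ear2, 5 against 13 for Cxcl9 and 3 against 7 for Lyve1 Cd163. Leaving out each library in turn gave 5 to 9 for monocyte (reported 9), 1 to 4 for cDC (reported 2), 0 to 4 for CD8 T (reported 3), 0 to 0 for CD4 T (reported 1), 0 to 7 for NK (reported 0), 1 to 2 for neutrophil (reported 3), 2 to 6 for the monocyte to macrophage interaction (reported 5), 3 to 8 for Arg1 Inhba (reported 8), 3 to 9 for Chil3 Ear2 (reported 9), 5 to 7 for Cxcl9 (reported 13), 1 to 4 for Fcrls Cx3cr1 (reported 1), 5 to 15 for Lyve1 Cd163 (reported 7), 2 to 16 for Mmp12 Mmp13 (reported 6), 11 to 24 for cycling (reported 22), 3 to 6 for no subset (reported 2) and 17 to 27 for the F test over subsets (reported 29). Of 362 such alternative numbers 285 stayed within 1.5 times, which says nothing of direction. The shares of all genes that passed under the alternatives are not given, so these numbers have none beside them. With Leiden clusters monocytes against macrophages had 21 members higher and 2 lower in place of 8 and 15, the KO effect in monocytes had 1 and 11 in place of 8 and 1, and the interaction had 1 and 25 in place of 5 and 0. Same-numbered libraries did not deviate together (correlation -0.0225 in macrophages and -0.0693 in monocytes), so the replicate number as a block pairs nothing known, and it moved no other number by over 1.5 times. With that block Pfkp and Pfkfb4 in macrophages had adjusted p of 0.0636 and 0.0786 in edgeR. Of 2889 alternative values of single members 2499 kept direction and call, 319 kept direction and lost the call, 3 gained one and 68 changed sign, 58 of them with Leiden clusters. With total counts the log2 value was -0.05 for Gapdh (macrophage). Without WT 1 the log2 value was 0.12 for Hk2 (macrophage) and 0.09 for Ndrg1 (macrophage). Without WT 2 the log2 value was -0.09 for Egln3 (macrophage). Without KO 2 the log2 value was -0.06 for Gapdh (macrophage). With cells near the gate left out the log2 value was 0.18 for Aldoc (monocyte) and -0.08 for Egln3 (monocytes against Cxcl9). With equal subset weights in limma the log2 value was -0.1 for Gapdh (macrophage), -0.04 for Hif1a (macrophage) and -0.15 for Egln3 (macrophage). The values of Ndrg1 in macrophages with 1 library left out ran from -0.32 to 0.09. With Leiden clusters the signs that changed were these. In KO against WT for monocyte, Ndrg1 had -0.37, Hilpda had -0.44, Vegfa had -0.39 and Aldoa had -0.16. For monocytes against macrophages, Hilpda had 1.15, Aldoc had 0.45, Pdk1 had 0.15, Egln3 had 0.95, Mif had 0.39 and Pgam1 had 0.33. For monocytes against Arg1 Inhba, Hilpda had 0.59, Egln3 had 0.51, Aldoc had 0.64, Gpi1 had 0.19, Egln1 had 0.11, Mif had 0.25, Pgk1 had 0.21, Pgam1 had 0.11 and Vegfa had 0.38. For monocytes against C3 Vcam1, P4ha2 had 0.75 and Aldoc had 1.15. For monocytes against Chil3 Ear2, P4ha2 had 0.8, Pdk1 had 0.01, Hilpda had 1.73, Gpi1 had 0.12, Mif had 0.1, Pgam1 had 0.07, Pgk1 had 0.25 and Egln3 had 1.08. For monocytes against Cxcl9, Pfkm had 0.2, Aldoc had 0.91, Ankrd37 had -0.05, Ndrg1 had -0.07 and Pdk1 had 0.44. For monocytes against Fcrls Cx3cr1, P4ha2 had 1.01. For monocytes against Lyve1 Cd163, P4ha2 had 1.5, Hk3 had 0.39, Pfkfb4 had -0.19 and Pdk1 had 1.23. For monocytes against Mmp12 Mmp13, Pfkm had 0.03. For monocytes against cycling, Adm had 0.3 and P4ha2 had 0.71. For the monocyte to macrophage interaction, Ndrg1 had -0.12, Ankrd37 had -0.61, Slc2a1 had -0.46, Pfkfb3 had -0.12 and Hk2 had -0.24. In KO against WT for Cxcl9, Hilpda had -0.33, P4ha2 had -1.82, Egln3 had -1.15, Pgk1 had -0.65, Aldoa had -0.41, Slc16a3 had -0.26, Ndrg1 had -1.24 and Pfkl had -0.1. In KO against WT for Lyve1 Cd163, Aldoa had -0.24, Pkm had -0.59 and Pgk1 had -0.89. For results with a changed call or sign the cause was not tested. The T, NK and neutrophil sums rest on few cells, and intervals of counting were not added to library values.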

Other observations

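Cells in no comparison carried the members too. Ungated cells, which met the rule of no gate, held 15100, 13710, 14270 and 14610 CPM of the 16 glycolytic enzymes in WT 1, WT 2, KO 1 and KO 2, and 1455, 1220, 1262 and 1003 CPM of the 9 hypoxia targets. Fibroblast-gated cells, carried through the CD45 enrichment, held 11910, 9553, 9860 and 11000 CPM of the enzymes and 1120, 921, 950 and 1112 CPM of the targets. Both lay within the range of the macrophage subsets.

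Neutrophil-gated cells had levels of the hypoxia target Hilpda and of the oxygen-sensing gene Egln3 above those of macrophages. Hilpda stood there at 1424, 1615, 1029 and 1040 CPM in WT 1, WT 2, KO 1 and KO 2, and Egln3 at 282, 286, 214 and 139 CPM.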
